A study of Mus musculus with 6 samples.

Results

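The enzymes described here break down amino acids in the liver or move the one-carbon units that this breakdown releases. They are the 47 genes of the deposited table whose name stands on a list covering the phenylalanine and tyrosine (4 genes), tryptophan (5), histidine (4), proline (2), branched-chain (13), lysine (2), glycine and one-carbon (5) and methionine (6) pathways, with 6 aminotransferases and serine dehydratases. All 47 were found among the 54532 genes of the table, once each, and all 47 passed the filter on low values (0.5 FPKM or more, averaged over 6 livers), as did 12022 genes in all. FPKM counts sequenced fragments per kilobase of a gene's length after scaling by library. Messenger RNA was sequenced from untreated whole mouse livers of 2 groups: 3 animals with Notch1 knocked out in hepatocytes (KO, labelled Hepatocyte Notch1 KO) and 3 control animals with the genotype Notch1fl/fl. The study was made to ask about Notch1 and thrombopoietin made by the liver. No source used here gives the Cre driver, sex, age, diet or collection hour, and litters are not named, so a p-value covers only the spread among these 6 livers.

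The libraries held 15612924 to 17511961 reads in genes, recovered from the deposited values and gene lengths. Notch1 measured 0.301, 0.540 and 0.292 FPKM in the KO livers, against 0.618, 0.965 and 0.854 FPKM in the controls, without overlap, and missed the threshold (log2 difference -0.40, SE 0.13, limma adjusted p = 0.257). A whole-liver value adds all exons and all cell types, so it cannot stand for the deleted exons of hepatocytes. Hepatocyte markers were abundant in all 6 livers: Alb, Ttr, Apoa1, Cps1 and Serpina1a summed to 32053 to 43077 FPKM in KO livers and 45197 to 52895 FPKM in controls. Each KO sum lay below each control sum, and KO liver 3 was the lowest of the 6. Alb made up most of each sum and was the only marker of the list without overlap between groups. KO livers 1 and 3 also stood apart in 7 acute phase genes, which summed to 9979, 2269 and 10456 FPKM in KO livers 1 to 3, against 2842 to 3567 FPKM in controls. KO liver 2 stood apart in 8 male-biased genes, with a sum of 1659 FPKM against 3652 and 3669 FPKM in KO livers 1 and 3 and 3031 to 5378 FPKM in controls.

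Hepatocytes take up amino acids from portal blood and oxidise those not used for protein. For some of them, such as tyrosine, an aminotransferase first moves the amino group to a keto acid. Cytosolic and mitochondrial enzymes turn the carbon skeletons into intermediates for glucose, ketone body and fatty acid synthesis. For leucine, isoleucine and valine, liver has little branched-chain aminotransferase and receives their keto acids from other tissues. Methionine, serine, glycine and histidine feed the folate and S-adenosylmethionine cycles, which supply the one-carbon units for methylation and nucleotide synthesis. Inherited loss of several of these enzymes causes disease, such as tyrosinaemia, maple syrup urine disease, propionic acidaemia and nonketotic hyperglycinaemia.

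Promoter windows of 4 members are shown because 3 of them, Aldh6a1, Mccc1 and Mccc2, are branched-chain genes that measured lower in every KO liver than in every control, while Tat, a hormone-controlled gene, had a higher mean. Each window runs from 250 bases before to 50 bases after the start site in RefSeq (GRCm38.p6), 5′ to 3′ on the gene's strand. Both strands were searched for 9 short motifs, spelled out with their counts after the sequences, and capitals mark every match. CCAAT reads ATTGG on the other strand, and in Mccc2 a pair of its matches overlaps. Aldh6a1 lies at chr12:84450975-84451274 (minus strand), Mccc1 at chr3:36000629-36000928 (minus strand), Mccc2 at chr13:100015590-100015889 (minus strand) and Tat at chr8:109990186-109990485 (plus strand).
Aldh6a1: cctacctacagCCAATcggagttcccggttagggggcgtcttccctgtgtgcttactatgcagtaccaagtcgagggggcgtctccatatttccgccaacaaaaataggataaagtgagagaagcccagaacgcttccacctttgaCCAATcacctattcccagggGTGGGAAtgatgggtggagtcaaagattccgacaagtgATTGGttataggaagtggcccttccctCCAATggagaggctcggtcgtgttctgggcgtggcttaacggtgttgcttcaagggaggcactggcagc
Mccc1: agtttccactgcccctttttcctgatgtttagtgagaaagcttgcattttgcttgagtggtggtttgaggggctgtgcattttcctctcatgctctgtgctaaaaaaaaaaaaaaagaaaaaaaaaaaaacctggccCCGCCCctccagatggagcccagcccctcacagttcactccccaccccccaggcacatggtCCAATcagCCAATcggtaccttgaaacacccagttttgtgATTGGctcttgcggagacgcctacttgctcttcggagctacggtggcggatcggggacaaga
Mccc2: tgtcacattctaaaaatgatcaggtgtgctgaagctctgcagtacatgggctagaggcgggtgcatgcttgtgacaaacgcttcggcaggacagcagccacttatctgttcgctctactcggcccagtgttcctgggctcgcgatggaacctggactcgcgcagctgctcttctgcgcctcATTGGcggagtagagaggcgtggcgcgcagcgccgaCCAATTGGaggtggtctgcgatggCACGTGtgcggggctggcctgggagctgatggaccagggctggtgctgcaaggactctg
Tat: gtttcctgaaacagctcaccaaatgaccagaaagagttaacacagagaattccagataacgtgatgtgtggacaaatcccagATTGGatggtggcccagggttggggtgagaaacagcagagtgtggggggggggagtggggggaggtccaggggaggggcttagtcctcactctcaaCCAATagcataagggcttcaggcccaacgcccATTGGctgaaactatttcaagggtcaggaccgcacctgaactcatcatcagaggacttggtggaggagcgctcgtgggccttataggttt

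The Aldh6a1 window held 4 CCAAT matches and the windows of Mccc1, Mccc2 and Tat held 3 each. Of the 40 members matched in RefSeq (all but Kynu, Gpt, Sds, Sdsl, Dbt, Mat1a and Cth), 24 windows held CCAAT (60.0%), against 37.4% of all 32851 windows and 37.8% of the 11105 windows of genes that passed the filter in these livers. The GC box GGGCGG stood in 19 member windows (47.5%), against 35.7% of all windows and 61.0% of those of genes that passed the filter. The motif GTGGGAA of RBPJ, the DNA-binding partner of Notch, stood in 3 (Fah, Aldh6a1 and Shmt1, 7.5%, against 6.38% of all windows and 5.89% of those of genes that passed) and the E box CACGTG in 2 (Mccc2 and Cbs, 5%, against 7.15% and 10.03%). The TATA box TATAAA stood in 5 windows (Hgd, Tdo2, Got2, Hal and Ftcd, 12.5%, against 13.6% of all windows and 7.92% of those of genes that passed the filter). The FOXA motif TGTTTAC stood in 2 windows (5%, against 3.65% and 3.06%) and the C/EBP motif TTGCNNAA in 4 (10%, against 10.8% and 9.35%), while the HNF4A motif CAAAGTCCA and the cyclic AMP response motif TGACGTCA stood in none of the 40 (0.475% and 1.79% of all windows, 0.594% and 3.00% of those of genes that passed). These are matches of letters in a window of 300 bases, not binding sites; no relation to the expression differences was tested.

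Messenger RNA of most of these enzymes measured slightly lower in KO livers, and no single member passed the threshold. Of the 47 members, 41 had a lower and 6 a higher mean log2 level in KO livers as deposited, where 51.9% of all genes tested were lower. With libraries scaled to totals, described next, 29 were lower, and the matching share of all genes was not counted. The median log2 difference, KO minus control, was -0.23 over the members and -0.0081 over all genes tested. No member passed an adjusted p of 0.05 in limma, where 0.025% of all genes did (3 genes, or 0 when replicate numbers were blocked). The smallest adjusted p was 0.165, that of Aldh6a1. At an unadjusted p under 0.05, 12 members were lower (25.5%) and 1 was higher (2.13%), against 7.06% of all genes lower and 6.83% higher. All 3 KO livers lay below all 3 controls in 19 members (40.4%), against 10.6% of all genes, and above them in 0, against 9.2% (19.8% of all genes in either direction). Because no member passed, all differences are given as values.

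**Figure D1:**
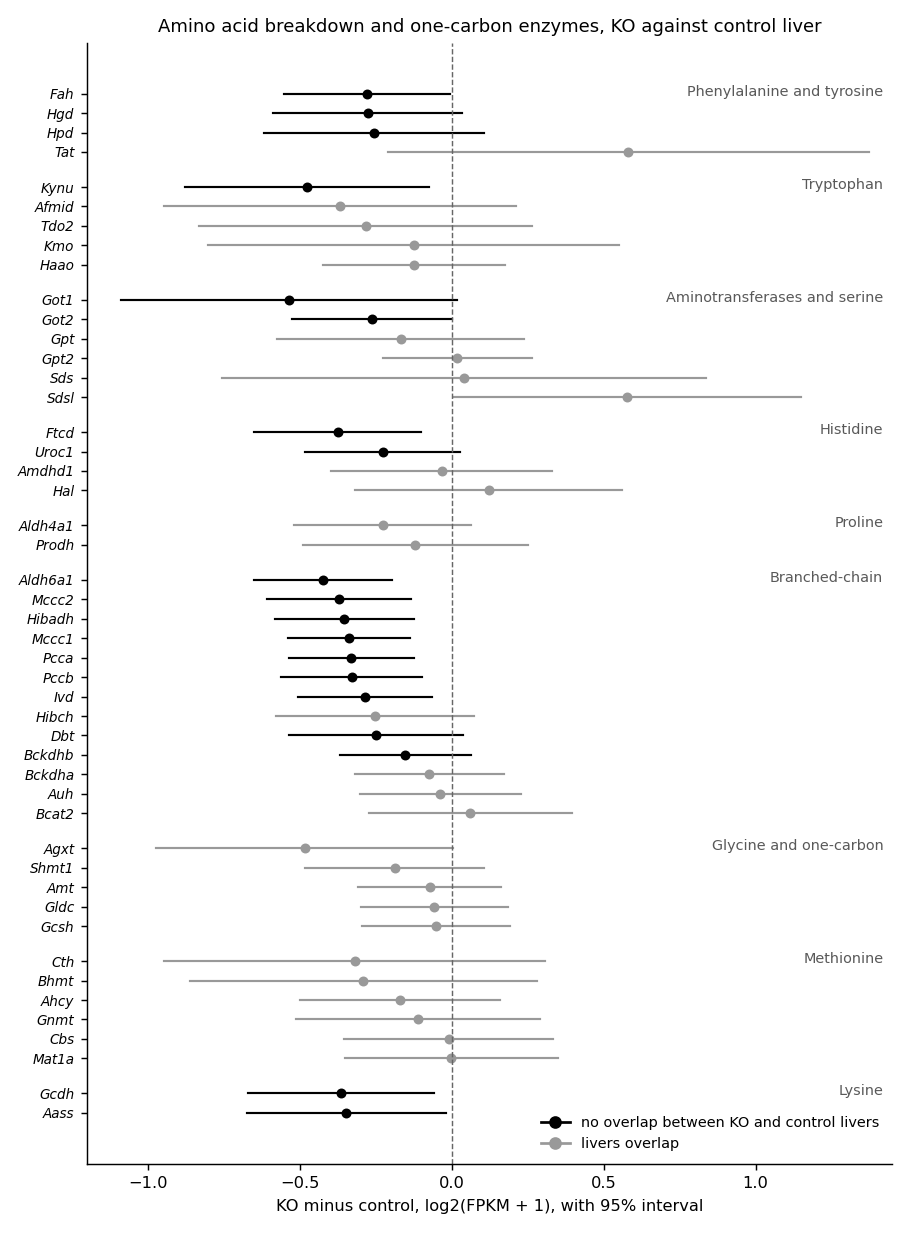
KO minus control on the log2(FPKM + 1) scale for each of the 47 members (points) with the 95% interval from limma (lines), grouped by pathway; black marks the 19 members whose 3 KO and 3 control livers do not overlap. Most points lie left of 0, and 9 of the black ones are branched-chain enzymes.

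The size of this difference depended on how libraries were scaled. Scaling to the total of FPKM or to the total of reads put the median of all genes at 0.10 and 0.097, and the members then had medians of -0.080 and -0.087. Relative to the median of all genes, the members lay at -0.22 as deposited, -0.18 with the total of FPKM, -0.18 with the total of reads and -0.11 with quantile normalization. Each total scaling multiplies a library by a single factor, so it moves all genes nearly alike and could hardly change this distance. Under the 2 total scalings only 1 (Kynu) and 2 (Kynu and Aldh6a1) members remained lower at an unadjusted p under 0.05, and Sdsl was again the 1 higher. With quantile normalization 8 of the 12 remained. Of the 12022 genes tested, 1423 and 1742 were at that p in either direction under the total scalings. As deposited and with quantile normalization there were 1670 each. The share of all genes lower at that p was counted only as deposited. These counts in either direction therefore give no background for the members lower under the other scalings. The members without overlap that were lower numbered 7 with the total of FPKM (14.9%, against 3.82% of all genes) and 9 with the total of reads (19.1%, against 4.43%). In the other direction 1 member was higher without overlap under each total scaling, against 13.1% and 15.9% of all genes. Single libraries mattered as well: without KO liver 3 the median was -0.14, and without KO liver 3, control 1 or control 2 7 members were lower at an unadjusted p under 0.05. In those fits, in that order, 1291, 1166 and 1315 of all genes tested were at that p in either direction.

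**Figure D2:**
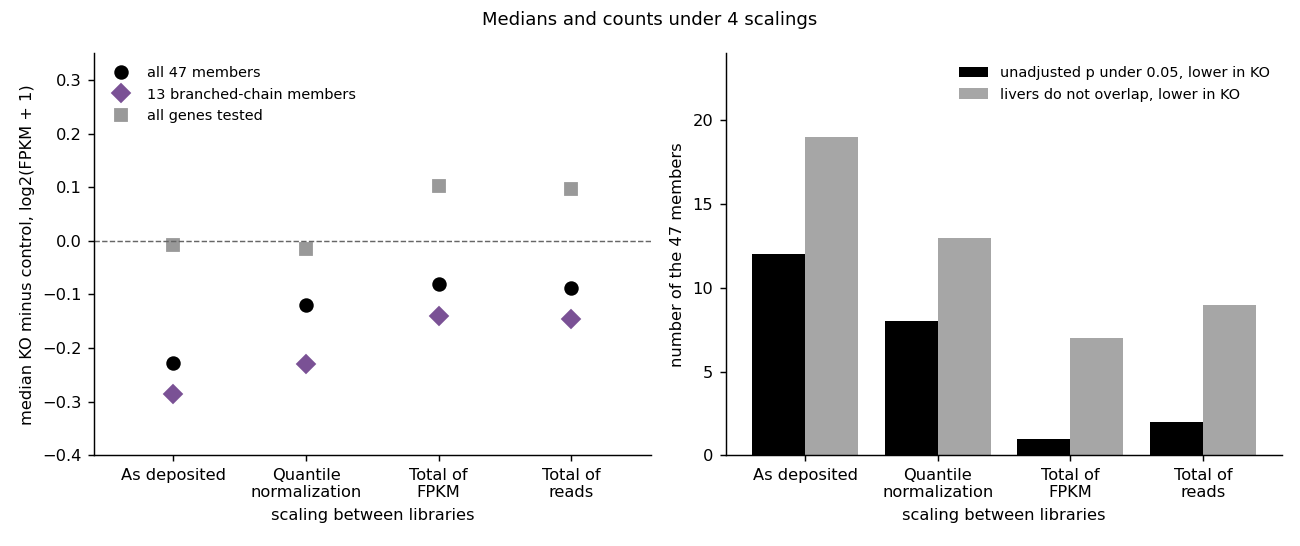
Left, median KO minus control (log2(FPKM + 1)) over all 47 members (circles), the 13 branched-chain members (diamonds) and all genes tested (squares) under 4 scalings between libraries; right, the number of members lower in KO at an unadjusted p under 0.05 (black bars) or without overlap between livers (grey bars). The median of the members lies below that of all genes under each of the 4 scalings, and the counts are 1 and 7 with the total of FPKM, against 12 and 19 as deposited. The total scalings move all genes nearly alike, so they could hardly change the distance between these medians.

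Each of the 5 hepatocyte markers had a lower mean in KO livers, with a median log2 difference of -0.23, against -0.23 for the members. Of these markers, 0 were lower at an unadjusted p under 0.05 in limma. Fewer hepatocytes and less RNA per hepatocyte cannot be told apart in whole liver. Of 6 bile duct markers, 4 passed the filter and all 4 had higher means; the list summed to 23.6 to 32.8 FPKM in KO livers and 12.8 to 16.1 FPKM in controls, with Cftr at 0 in 1 control. Stellate cell markers (6 of 8 with higher means) summed to 68.0 to 96.5 FPKM in KO livers and 47 to 83.0 FPKM in controls, macrophage markers (6 of 10 higher) to 250.2 to 331 FPKM in KO livers and 258 to 310.1 FPKM in controls and endothelial markers (2 of 7 higher) to 52.2 to 63.9 FPKM in KO livers and 52.6 to 64.5 FPKM in controls. Neutrophil markers (2 of 3 tested higher) summed to 10.6 to 36.8 FPKM in KO livers and 5.59 to 17.8 FPKM in controls, with Ly6g, Mpo, Elane and Camp at 0 in at least 1 liver, and lymphocyte markers (2 of 3 tested higher) to 3.23 to 4.55 FPKM in KO livers and 3.51 to 4.79 FPKM in controls. Markers of the pericentral zone (7 of 8 tested lower) summed to 873 to 1833 FPKM in KO livers and 2234 to 2506 FPKM in controls. Cyp2e1 made up most of each of these sums. Only Cyp2e1 and Cyp1a2 of that list were without overlap between groups. Markers of the periportal zone (3 of 8 lower) summed to 1220.2 to 1483 FPKM in KO livers and 1359.5 to 1684 FPKM in controls. The periportal list includes Hal and Sds, which are members themselves. The part of all these markers in the differences of the enzymes was not tested.

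Most of the 13 branched-chain enzymes measured lower in KO livers. Of these, 12 had lower means in KO livers, the median log2 difference was -0.29, 7 were lower at an unadjusted p under 0.05 and 9 did not overlap between groups. Over all genes tested, 51.9% had lower means, 7.06% were lower at that p and 10.6% were lower without overlap. The median over the pathway lay -0.25, -0.27 and -0.35 from the control mean in KO livers 1 to 3. With scaling to the total of FPKM or of reads the pathway lay -0.24 and -0.24 from the median of all genes, against -0.28 as deposited. These scalings could hardly change that distance, which was -0.22 with quantile normalization. Under the total scalings 4 and 6 of the 13 were lower without overlap, against 3.82% and 4.43% of all genes.

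Aldh6a1, the methylmalonate-semialdehyde dehydrogenase of valine and thymine breakdown (ENSMUSG00000021238, chromosome 12, 84430717 to 84451004, minus strand, GRCm38), measured 51.4, 45.3 and 45.0 FPKM in KO livers 1 to 3, against 64.7, 63.3 and 62.6 FPKM in control livers 1 to 3. All KO livers lay below all controls, and the highest KO value was that of liver 1 (log2 difference -0.42, SE 0.096, limma adjusted p = 0.165). Hibadh, which makes the substrate of Aldh6a1 from 3-hydroxyisobutyrate, measured 31.4, 29.6 and 28.6 FPKM in the KO livers, against 40.9, 39.2 and 35.4 FPKM in the controls (log2 difference -0.35, SE 0.097, limma adjusted p = 0.204). Hibch, the hydrolase before it, measured 14.8, 10.8 and 12.4 FPKM in the KO livers, against 15.1, 17.0 and 13.6 FPKM in the controls, and KO liver 1 overlapped the controls (limma adjusted p = 0.464). Means were lower at each of these 3 steps of valine breakdown.

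Leucine is carried on by Ivd, isovaleryl-CoA dehydrogenase, and by methylcrotonyl-CoA carboxylase, whose α and β subunits are encoded by Mccc1 and Mccc2. Ivd measured 35.5, 36.9 and 32.5 FPKM in the KO livers, against 44.4, 42.8 and 41.3 FPKM in the controls (log2 difference -0.29, SE 0.093, limma adjusted p = 0.264). Mccc1 (ENSMUSG00000027709, chromosome 3, 35959312 to 36000678, minus strand) measured 3.41, 3.82 and 3.58 FPKM in the KO livers, against 4.87, 4.61 and 4.97 FPKM in the controls (log2 difference -0.34, SE 0.085, limma adjusted p = 0.181). Mccc2 (ENSMUSG00000021646, chromosome 13, 99948530 to 100015639, minus strand) measured 21.3, 19.2 and 18.9 FPKM in the KO livers, against 24.3, 28.2 and 25.2 FPKM in the controls (log2 difference -0.37, SE 0.10, limma adjusted p = 0.2). None of the 3 overlapped between groups as deposited, and Mccc1 rested on 558 to 839 reads in KO livers. Ivd overlapped under both total scalings, and Mccc1 and Mccc2 did so with the total of FPKM. Auh, the hydratase that follows, overlapped (3.45 ± 0.285 FPKM in KO livers and 3.58 ± 0.518 FPKM in controls, SD, n = 3).

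Propionyl-CoA carboxylase, which takes the propionyl-CoA from isoleucine, valine and methionine, measured lower in both subunits. Pcca, the biotin-carrying α subunit, measured 13.3, 13.6 and 13.1 FPKM in the KO livers, against 17.8, 17.5 and 15.8 FPKM in the controls (log2 difference -0.33, SE 0.087, limma adjusted p = 0.194). Pccb, the β subunit, measured 59.9, 51.2 and 54.0 FPKM in the KO livers, against 69.4, 69.3 and 69.0 FPKM in the controls (log2 difference -0.33, SE 0.098, limma adjusted p = 0.226). The KO values of both lay below every control as deposited, and KO liver 1 was the highest KO liver for Pccb. With the total of FPKM Pcca overlapped, while Pccb did not. Ggact overlaps Pcca on the opposite strand with 950 reads on average, against 1308 for Pcca, so the level of Pcca is uncertain where counting ignored strand. The ratio of Pccb to Pcca FPKM was 4.52, 3.76 and 4.11 in KO livers, against 3.90, 3.96 and 4.37 in controls. That of Mccc2 to Mccc1 was 6.24, 5.04 and 5.27 in KO livers, against 4.98, 6.13 and 5.08 in controls. Both ratios overlapped between groups.

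At the head of the pathway, Bckdha and Bckdhb encode the 2 subunits of the E1 component of branched-chain keto acid dehydrogenase, and Dbt its E2 core. Bckdhb measured 29.6, 32.6 and 33.0 FPKM in the KO livers, against 35.7, 36.3 and 34.1 FPKM in the controls (adjusted p = 0.505 in limma), and Dbt 30.8, 31.9 and 24.5 FPKM in the KO livers, against 36.0, 33.5 and 34.1 FPKM in the controls (limma adjusted p = 0.415). Both were without overlap as deposited, though for Bckdhb the highest KO liver and the lowest control were close. Under both total scalings Bckdhb and Dbt overlapped. Bckdha overlapped (30.7 ± 2.36 FPKM in KO livers and 32.3 ± 2.46 FPKM in controls), and its mean, like that of Auh, was higher in KO livers under both total scalings. Bcat2, the aminotransferase, was low in level in both groups (2.95 ± 0.250 FPKM in KO livers and 2.82 ± 0.681 FPKM in controls), and a gene on the opposite strand that overlaps it had 1529 reads on average against 188 for Bcat2, so its value is uncertain where counting ignored strand.

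**Figure D3:**
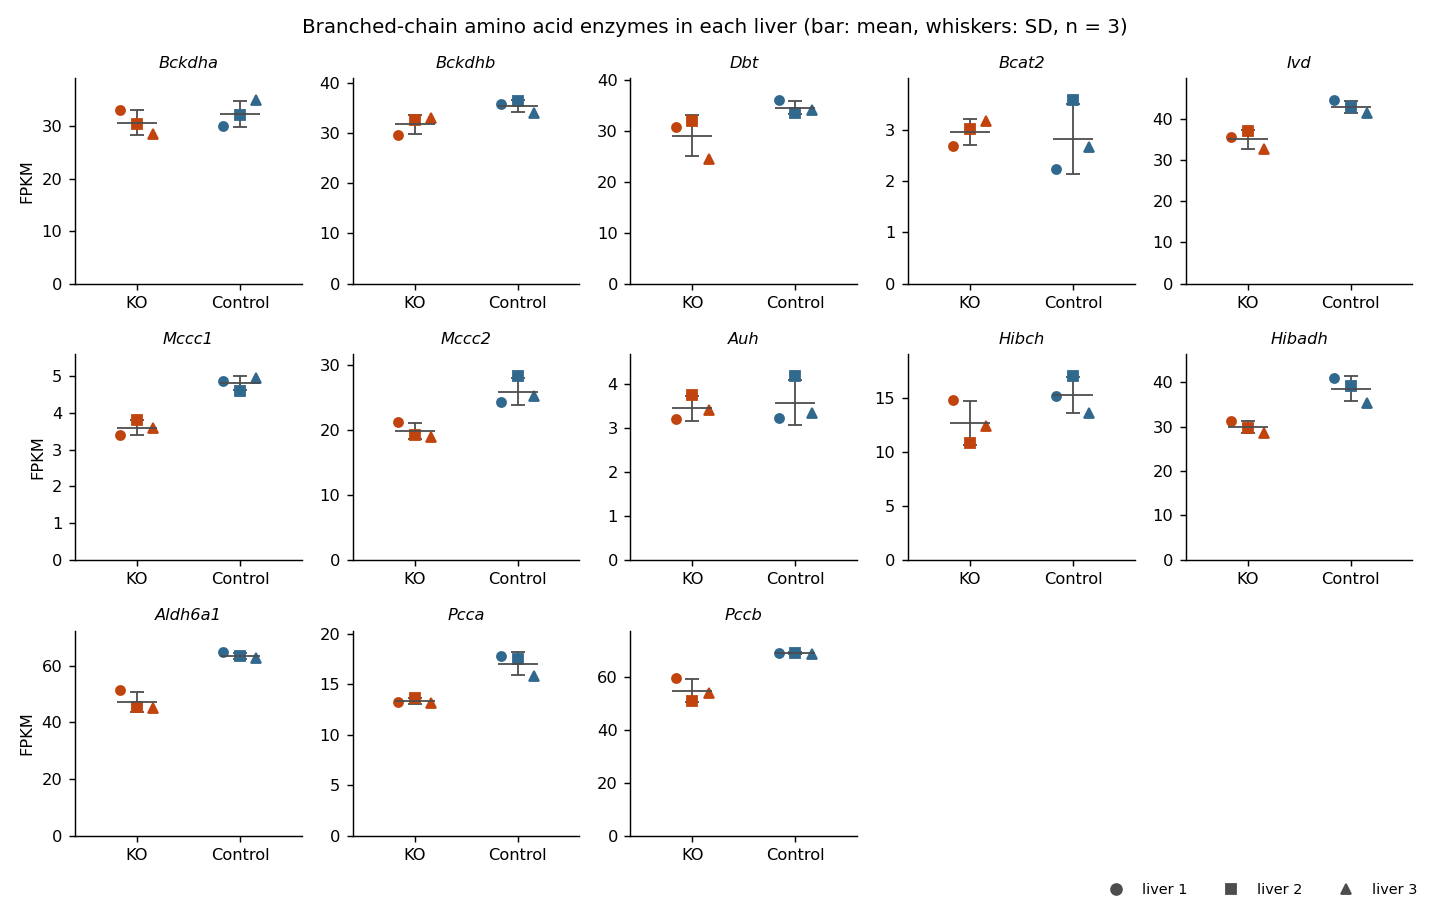
FPKM of each of the 13 branched-chain enzymes in KO livers (orange, left) and control livers (blue, right); symbols give the liver's number, bars the mean and whiskers the SD (n = 3). In 9 panels, among them Aldh6a1, Mccc1, Mccc2, Pcca and Pccb, every orange point lies below every blue one.

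Of 14 further genes of the branched-chain pathway, 13 were tested, 12 had lower and 1 higher means, and 5 were lower at an unadjusted p under 0.05, against 7.06% of all genes (51.9% with lower means). Acat1, the mitochondrial thiolase of isoleucine and ketone bodies, measured 99.7, 104 and 82.2 FPKM in the KO livers, against 128, 156 and 129.5 FPKM in the controls (log2 difference -0.53, SE 0.14, limma adjusted p = 0.184). Mut, methylmalonyl-CoA mutase, measured 40.3 ± 6.07 FPKM in KO livers and 54.0 ± 3.27 FPKM in controls, and Ppm1k, the phosphatase that activates the keto acid dehydrogenase, 10.4 ± 1.03 FPKM in KO livers and 13.6 ± 1.17 FPKM in controls. The remaining 2 were Hsd17b10 (86.5 ± 7.88 FPKM in KO livers and 109 ± 9.56 FPKM in controls) and Acad8, isobutyryl-CoA dehydrogenase (14.5 ± 0.643 FPKM in KO livers and 17.9 ± 1.32 FPKM in controls). None overlapped between groups and none passed (limma adjusted p = 0.184 to 0.297).

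Both enzymes of lysine breakdown measured lower in each KO liver than in any control. Gcdh, glutaryl-CoA dehydrogenase, measured 184, 145 and 163 FPKM in KO livers 1 to 3, against 221, 216 and 194 FPKM in control livers 1 to 3 (log2 difference -0.36, SE 0.13, limma adjusted p = 0.29). Aass, the bifunctional enzyme that opens the saccharopine route, measured 75.1, 74.7 and 57.3 FPKM in the KO livers, against 94.7, 80.4 and 87.7 FPKM in the controls (log2 difference -0.35, SE 0.14, limma adjusted p = 0.339). KO liver 2 was the lowest for Gcdh and KO liver 3 for Aass. Under both total scalings Gcdh was again without overlap, while Aass overlapped. Of 5 further genes of lysine and electron transfer tested, 5 had lower means, against 51.9% of all genes. Etfdh, of the route by which Gcdh and Ivd pass electrons to the respiratory chain, measured 32.7, 28.2 and 29.6 FPKM in the KO livers, against 37.9, 42.4 and 38.1 FPKM in the controls (log2 difference -0.38, SE 0.10, limma adjusted p = 0.196), and Dhtkd1 measured 2.88 ± 0.575 FPKM in KO livers and 3.95 ± 0.629 FPKM in controls, with overlap.

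In the tyrosine pathway the first enzyme had a higher and the later ones a lower mean in KO livers. Tat, tyrosine aminotransferase, a classic glucocorticoid-induced liver gene, measured 539.9, 635 and 596 FPKM in KO livers 1 to 3, against 229, 440.1 and 604 FPKM in control livers 1 to 3 (log2 difference 0.58, SE 0.33, limma adjusted p = 0.488). The control livers differed by 2.64-fold among themselves, and control 3 lay inside the KO range. The members Tat, Tdo2, Sds, Gpt2 and Got1 also belong to a list of 14 glucocorticoid and glucagon targets. On that list 6 had lower and 8 higher means, where 51.9% of all genes were lower. At an unadjusted limma p under 0.05, 2 were lower and 1 higher, against 7.06% and 6.83% of all genes. Hpd, which makes homogentisate, measured 740.0, 720.5 and 568 FPKM in the KO livers, against 821, 839 and 750.5 FPKM in the controls (limma adjusted p = 0.509). Hgd, which opens its ring, measured 208, 194 and 159.8 FPKM in the KO livers, against 223, 236 and 219 FPKM in the controls (adjusted p = 0.408 in limma). Fah, the last enzyme, measured 206, 203 and 216 FPKM in the KO livers, against 278, 253 and 231 FPKM in the controls (log2 difference -0.28, SE 0.12, limma adjusted p = 0.348). These 3 did not overlap, with KO means 0.842, 0.829 and 0.821 times those of controls, but all 3 overlapped under both total scalings.

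In tryptophan breakdown only Kynu, kynureninase, was without overlap, and the KO livers differed from each other. Kynu measured 38.1, 23.5 and 30.3 FPKM in KO livers 1 to 3, against 43.0, 43.3 and 40.3 FPKM in control livers 1 to 3 (log2 difference -0.48, SE 0.17, limma adjusted p = 0.293). Its controls lay within 40.3 to 43.3 FPKM, and it was without overlap under the deposited and both total scalings. Tdo2, the dioxygenase that starts the pathway, measured 484, 356 and 258 FPKM in the KO livers, against 421, 479 and 399 FPKM in the controls. Kmo, kynurenine 3-monooxygenase, measured 101, 43.7 and 80.9 FPKM in the KO livers, against 83.7, 76.6 and 72.6 FPKM in the controls: KO liver 2 lay below and KO liver 1 above every control. Afmid, the formamidase, measured 10.5, 11.9 and 5.55 FPKM in the KO livers, against 11.2, 12.7 and 11.5 FPKM in the controls, with KO livers 1 and 3 below every control and KO liver 3 the lowest. Haao, which makes the precursor of quinolinate, measured 402 ± 38.7 FPKM in KO livers and 438 ± 21.6 FPKM in controls. The lowest limma adjusted p of these 4 was 0.555, and under both total scalings the means of Kmo and Haao were higher in KO livers. Fh1 overlaps Kmo on the opposite strand with 4386 reads on average, against 5867 for Kmo. Among 6 further tryptophan genes tested, 4 had lower means, against 51.9% of all genes. Kyat3, a kynurenine aminotransferase, measured 23.1, 15.4 and 24.2 FPKM in the KO livers, against 27.8, 32.0 and 28.9 FPKM in the controls (log2 difference -0.50, SE 0.17, limma adjusted p = 0.279).

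Histidine is turned by Hal, Uroc1 and Amdhd1 into formiminoglutamate, whose formimino group Ftcd moves to folate. Ftcd measured 96.1, 77.9 and 91.4 FPKM in KO livers 1 to 3, against 109.8, 122 and 113 FPKM in control livers 1 to 3 (log2 difference -0.38, SE 0.12, limma adjusted p = 0.244), without overlap under the deposited and both total scalings. Uroc1, urocanase, measured 67.4, 79.9 and 72.6 FPKM in the KO livers, against 90.9, 81.2 and 85.4 FPKM in the controls (limma adjusted p = 0.406), with 79.9 FPKM in KO liver 2 just under the lowest control. Under both total scalings Uroc1 overlapped. Hal, histidine ammonia-lyase, a periportal enzyme, measured 63.2, 84.3 and 51.7 FPKM in the KO livers, against 67.1, 57.6 and 55.3 FPKM in the controls. Amdhd1 measured 88.0, 119 and 83.6 FPKM in the KO livers, against 103, 101 and 90.7 FPKM in the controls. For both, KO liver 2 was the highest of all 6 livers, and their mean differences were 0.12 and -0.034 on the log2 scale.

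Sds had the largest coefficient of variation in KO livers of the 47 members (56.4%). Sds, a glucagon-responsive enzyme that turns serine into pyruvate, measured 47.1, 108 and 41.4 FPKM in KO livers 1 to 3, against 54.1, 61.2 and 58.7 FPKM in control livers 1 to 3, a 2.61-fold range in KO livers against 1.13-fold in controls. KO liver 2 lay above, and KO livers 1 and 3 below, all controls; without KO liver 2 the log2 difference was -0.38, against 0.040 with it. Sdsl, its paralogue and neighbour on chromosome 5, measured 10.2, 17.7 and 9.30 FPKM in the KO livers, against 9.44, 7.17 and 6.59 FPKM in the controls (log2 difference 0.58, SE 0.24, limma adjusted p = 0.356). It was the 1 member higher at an unadjusted p under 0.05, again with KO liver 2 highest, and KO liver 3 lay inside the control range; without KO liver 2 it did not pass that threshold. Plbd2 overlaps Sds on the opposite strand (998 reads on average, against 1792 for Sds).

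The aspartate aminotransferases measured lower in every KO liver than in any control, and the alanine ones overlapped. Got1, the cytosolic enzyme, measured 98.5, 104 and 61.3 FPKM in the KO livers, against 113, 111 and 155 FPKM in the controls (log2 difference -0.54, SE 0.23, limma adjusted p = 0.37). Got2, the mitochondrial one, measured 75.1, 80.7 and 76.9 FPKM in the KO livers, against 104, 91.1 and 85.1 FPKM in the controls (log2 difference -0.26, SE 0.11, limma adjusted p = 0.36). Neither overlapped as deposited, but both did under the total scalings. Got2 has a processed pseudogene listed at 2.16 FPKM on average, which may share its reads. Gpt measured 63.1 ± 15.2 FPKM in KO livers and 69.9 ± 4.38 FPKM in controls and Gpt2 69.7 ± 1.95 FPKM in KO livers and 68.9 ± 6.19 FPKM in controls, with overlap in both (log2 differences -0.17 and 0.019). Agxt2, a mitochondrial aminotransferase outside the list, measured 35.7, 25.4 and 32.5 FPKM in the KO livers, against 49.2, 47 and 38.4 FPKM in the controls (log2 difference -0.52, SE 0.16, limma adjusted p = 0.236).

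**Figure D4:**
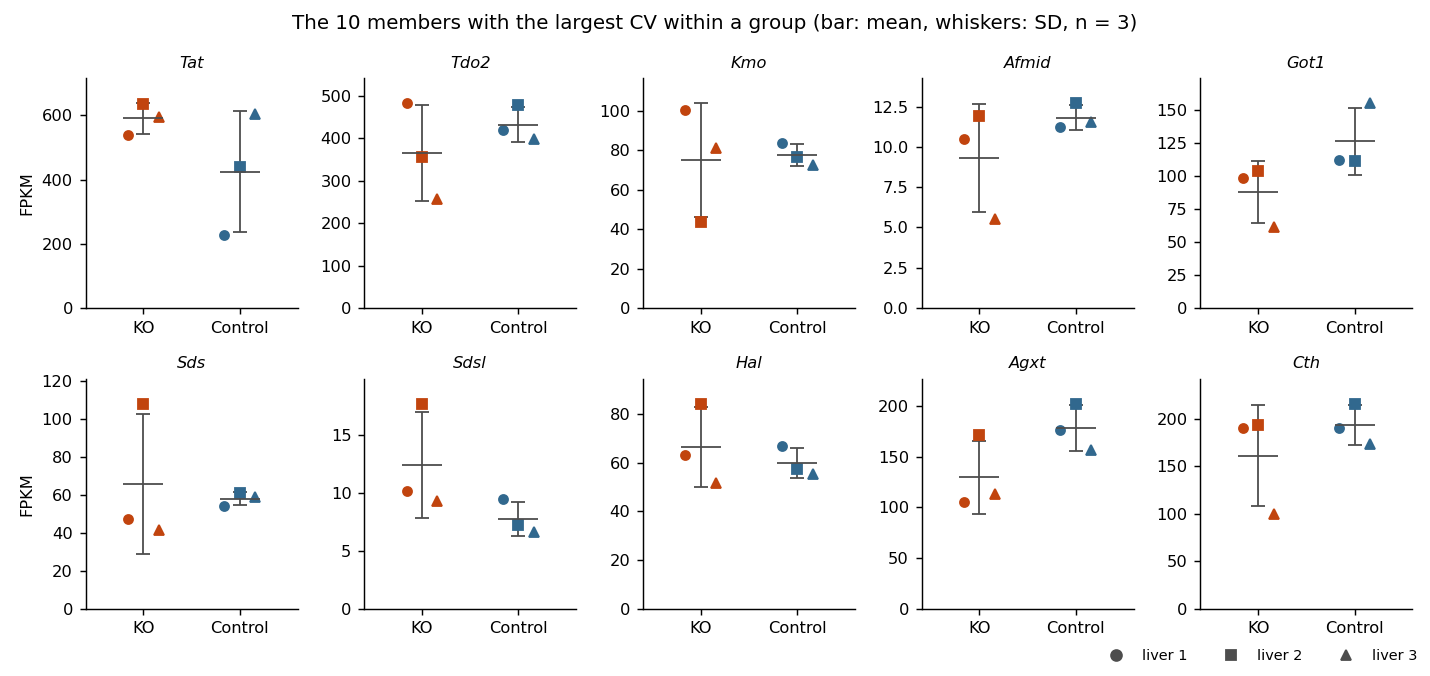
FPKM in KO livers (orange, left) and control livers (blue, right) of the 10 members with the largest coefficient of variation within a group; symbols give the liver's number, bars the mean and whiskers the SD (n = 3). Sds, Sdsl and Hal are highest in KO liver 2, Kmo is lowest there, and Tdo2, Afmid, Got1 and Cth are lowest in KO liver 3.

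The glycine cleavage system had small differences. Gldc, its decarboxylase, measured 41.2 ± 3.89 FPKM in KO livers and 42.7 ± 1.17 FPKM in controls, Amt, the aminomethyltransferase, 21.2 ± 1.82 FPKM in KO livers and 22.4 ± 1.2 FPKM in controls, and Gcsh, the lipoyl carrier protein, 79.2 ± 0.963 FPKM in KO livers and 82.3 ± 7.19 FPKM in controls (SD, n = 3 each). Their log2 differences were -0.057, -0.073 and -0.052, with 95% intervals of -0.30 to 0.19, -0.31 to 0.16 and -0.30 to 0.19; each was positive under both total scalings. Shmt1, the cytosolic serine hydroxymethyltransferase, measured 34.8, 27.2 and 26.2 FPKM in the KO livers, against 33.6, 32.7 and 33.8 FPKM in the controls. Agxt, which clears glyoxylate to glycine and whose loss causes primary hyperoxaluria, measured 105, 171 and 113 FPKM in KO livers 1 to 3, against 176, 202 and 156 FPKM in control livers 1 to 3 (log2 difference -0.48, SE 0.21, limma adjusted p = 0.36). KO livers 1 and 3 lay below all controls and KO liver 2 among them; without KO liver 2 its log2 difference was -0.70.

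Among 20 tested neighbours of glycine and one-carbon metabolism, 14 had lower and 6 higher means, where 51.9% of all genes were lower. The 4 at an unadjusted p under 0.05 were all lower and without overlap. Of all genes, 7.06% were lower at that p. Dmgdh and Sardh, the mitochondrial enzymes that strip methyl groups from dimethylglycine and sarcosine, measured 90.3 ± 10.3 FPKM in KO livers and 122 ± 10.4 FPKM in controls for Dmgdh, and 77.6 ± 4.68 FPKM in KO livers and 96.2 ± 4.65 FPKM in controls for Sardh. Aldh7a1, which serves choline and lysine breakdown, measured 79.3 ± 2.36 FPKM in KO livers and 99.6 ± 3.08 FPKM in controls, and Hao1, the glycolate oxidase that makes the substrate of Agxt, 138 ± 25.7 FPKM in KO livers and 179.5 ± 9.26 FPKM in controls. Their limma adjusted p lay between 0.21 and 0.327.

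In the methionine cycle the livers of the groups overlapped for every enzyme. Gnmt, which uses up S-adenosylmethionine, was the highest of all 47, at 1387, 1548 and 1108 FPKM in KO livers and 1469, 1439 and 1417 FPKM in controls. Mat1a, the liver's S-adenosylmethionine synthetase, measured 614, 573 and 479.9 FPKM in the KO livers, against 523, 529 and 611 FPKM in the controls. Its log2 difference was -0.0015, with a 95% interval of -0.35 to 0.35. Ahcy, which hydrolyses S-adenosylhomocysteine, had the smallest p of the 6 and measured 622, 552 and 491 FPKM in the KO livers, against 658, 591 and 621 FPKM in the controls (log2 difference -0.17, SE 0.14, limma adjusted p = 0.63). Bhmt, which remethylates homocysteine with betaine, measured 587, 391 and 609.6 FPKM in the KO livers, against 792, 649.8 and 498 FPKM in the controls (529 ± 120.1 FPKM in KO livers and 647 ± 147 FPKM in controls, SD, n = 3). A processed pseudogene is listed at 5.41 FPKM.

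Cbs and Cth carry homocysteine to cysteine. Cbs measured 117 ± 19.0 FPKM in KO livers and 117 ± 10.6 FPKM in controls, and Cth 190.4, 193 and 99.4 FPKM in the KO livers, against 191, 216 and 174 FPKM in the controls, low in KO liver 3 alone. All 6 methionine genes had lower mean log2 levels as deposited, with differences of -0.32 to -0.0015. For Mat1a the mean of FPKM itself was 555 in KO livers and 554 in controls. Gnmt, Mat1a and Cbs had higher mean log2 levels in KO livers under both total scalings. Of the 16 neighbours tested, 11 had lower means, against 51.9% of all genes. Cdo1, cysteine dioxygenase, measured 788, 681 and 557 FPKM in the KO livers, against 849, 1023 and 902 FPKM in the controls (log2 difference -0.46, SE 0.17, limma adjusted p = 0.313), and Adi1, of the methionine salvage pathway, 74.4 ± 7.13 FPKM in KO livers and 93.5 ± 10.4 FPKM in controls (limma adjusted p = 0.329).

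Proline is oxidised by Prodh and then Aldh4a1 to glutamate. Aldh4a1 measured 31.1, 40.5 and 33.4 FPKM in the KO livers, against 42.5, 42.3 and 38.0 FPKM in the controls (log2 difference -0.23, SE 0.12, limma adjusted p = 0.464), and KO livers 1 and 3 lay below all controls. Prodh measured 15.7 ± 2.83 FPKM in KO livers and 17.2 ± 2.55 FPKM in controls, with overlap and a higher mean in KO livers under both total scalings. Prodh2, which starts hydroxyproline breakdown, measured 43.9, 48.0 and 41.4 FPKM in the KO livers, against 59.8, 68.7 and 58.2 FPKM in the controls (log2 difference -0.48, SE 0.11, limma adjusted p = 0.165). Hoga1, further down the hydroxyproline route, measured 37.1 ± 3.76 FPKM in KO livers and 49.5 ± 8.71 FPKM in controls. Of all 73 neighbours tested, as deposited, 55 had lower and 18 higher means, where 51.9% of all genes were lower. At an unadjusted p under 0.05, 18 were lower and 1 higher, against 7.06% of all genes lower and 6.83% higher. The median log2 difference of these neighbours was -0.14.

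KO liver 3 was most often the lowest liver. It was the lowest of the 6 livers in 25 of 47 members and the highest in 0, while KO liver 1 was lowest in 8 and highest in 4, and KO liver 2 lowest in 9 and highest in 9. The controls were lowest in 2, 1 and 2 members and highest in 17, 14 and 3. The median over all members lay -0.14, -0.16 and -0.32 from the control mean in KO livers 1 to 3. The same liver had the lowest sum of hepatocyte markers and the highest of acute phase genes, and their part in this order was not tested. The members also varied more among KO livers, with a median coefficient of variation of 12.3% against 6.81% in controls, and a larger one in KO livers for 36 of 47. This was not tested. Neither the lowest and highest livers nor the coefficients of variation were counted over all genes. Neither can therefore be called particular to these enzymes.

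**Figure D5:**
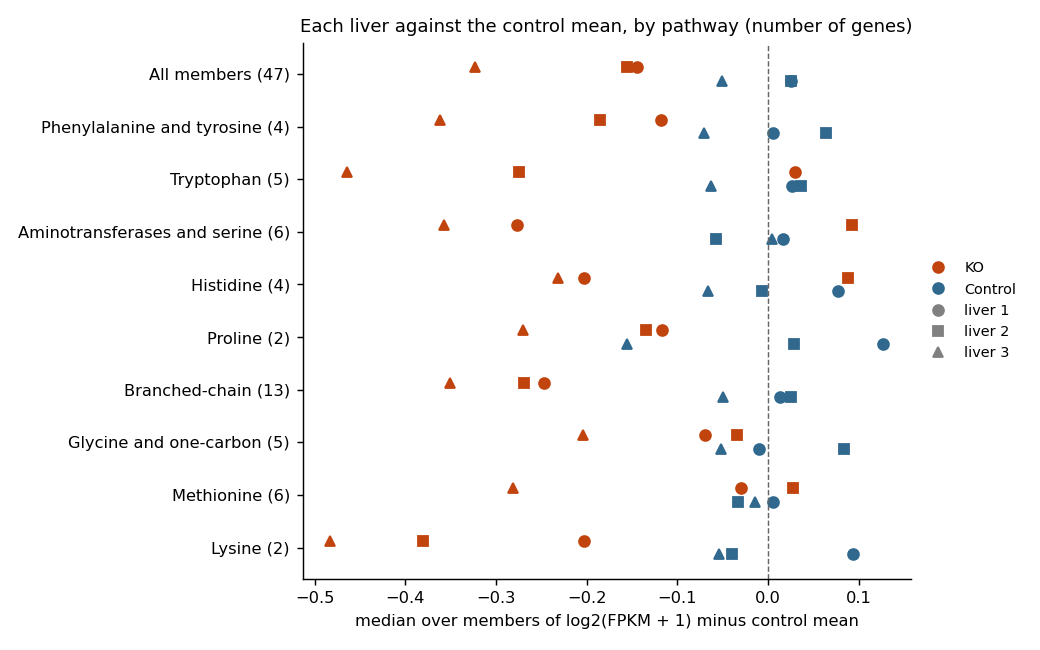
Median over the members of each pathway of log2(FPKM + 1) minus the control mean, for KO livers (orange) and control livers (blue); symbols give the liver's number and the number of genes stands in brackets. The medians of all members and of branched-chain, lysine, and phenylalanine and tyrosine enzymes are lower in all 3 KO livers than in any control. KO liver 2 lies above the control mean for aminotransferases and serine, histidine and methionine enzymes.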

How the data were processed

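The authors deposited 1 table of FPKM per gene for 6 whole livers. Per the labels' protocols, RNA came from Trizol extraction and poly-T selection, and the library kit was NEBNext Ultra. GRCm38, featureCounts 1.5.0-p3 and HISAT2 2.0.5 are named, per the submitters' processing notes; no source used here states the strand setting. Columns named NC were taken as the controls by elimination (0 columns left over). FPKM times gene length gave whole reads within 0.1 for 100% of values above 0, and the scaling between the deposited libraries is proportional to the median ratio of their reads. The 12022 of 54532 genes averaging 0.5 FPKM or more were fitted on log2(FPKM + 1) with limma 3.58.1 (eBayes with trend) in R 4.3.3, two-sided, Benjamini-Hochberg adjusted over all genes; the fit was tested on simulated data. A fold change on this scale understates that of low genes. At these depths 3 reads in a gene of 1 kilobase correspond to 0.150 to 0.201 FPKM, and the members held 131 to 68465 reads per liver.

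The members, lists and tests were chosen with earlier results of these data known. Members past the threshold, at an unadjusted p under 0.05, without overlap, or with the smallest p of their pathway are given per liver; of the neighbours, those at an unadjusted p under 0.05 are named, except some genes that are not reported here. Deviations from the group means of same-numbered livers correlated at 0.31, 0.16 and 0.10 across genes, and differently numbered ones at -0.25 to 0.11, the highest being KO 2 with control 3, above the pair numbered 3. The number was used as a block in an alternative; this pairing comes from the values, not the labels. Gcat has 2 rows, of which the one above 0 was used.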

Additional observations from a re-analysis of the deposited data

How the results depend on the processing

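Under the 18 alternatives, among them pseudocounts of 0.1 and 0.5, a filter at 1 FPKM or none, limma without trend, robust or with array weights, and voom on recovered reads, no member passed an adjusted p of 0.05, and the lowest adjusted p of any member was 0.117 (limma). Scaling to total reads was chosen after seeing the data. The median over members was -0.12 with quantile normalization, -0.080 with the total of FPKM and -0.087 with the total of reads. Members lower at an unadjusted p under 0.05 numbered 1 and 2 under the total scalings and 19 with array weights. With array weights 1856 of all genes tested were at that p in either direction. The 1 higher became 0 without a filter, without trend, with robust fitting and with array weights. Members without overlap numbered 7 and 9 lower under the total scalings, and 1 higher under these and quantile normalization. Leaving out 1 liver at a time gave medians of -0.28 to -0.14, 7 to 18 members lower and 0 to 1 higher at an unadjusted p under 0.05 (7 without KO liver 3, control 1 or control 2; 0 higher without KO liver 2 or control 2), 19 to 27 lower and 0 to 1 higher without overlap, and 37 to 42 with lower means. In these fits 1166 to 1864 of all genes tested were at an unadjusted p under 0.05 in either direction. Groups with a liver left out separate more readily. The matching shares of all genes without overlap or with lower means were not counted.

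With the replicate number as a block, 12 members were lower and 1 higher at an unadjusted p under 0.05, 11 of the 12 shared with the unblocked fit (Agxt in place of Fah). Of all genes tested, 1937 were at that p in either direction with the block, against 1670 without it. At an adjusted p of 0.05, 0 of all genes passed, against 3, and the block changed no other call at that threshold. Depth limits Bcat2 most, which had the fewest reads of the members, 131 in its lowest liver.

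The log2 difference changed sign for 16 members under at least 1 alternative, and 31 members kept their sign in all 18; the cause was not tested. Of these values 1 had an unadjusted p under 0.05, that of Sds without KO liver 2 (limma adjusted p = 0.265). With quantile normalization, it was 0.10 for Amdhd1, 0.13 for Cbs, 0.073 for Gcsh, 0.012 for Gnmt and 0.14 for Mat1a. With the total of FPKM, it was 0.11 for Amdhd1, 0.071 for Amt, 0.082 for Auh, 0.071 for Bckdha, 0.14 for Cbs, 0.097 for Gcsh, 0.090 for Gldc, 0.039 for Gnmt, 0.025 for Haao, 0.022 for Kmo, 0.15 for Mat1a and 0.020 for Prodh. With the total of reads, it was 0.11 for Amdhd1, 0.064 for Amt, 0.075 for Auh, 0.065 for Bckdha, 0.13 for Cbs, 0.090 for Gcsh, 0.083 for Gldc, 0.032 for Gnmt, 0.018 for Haao, 0.015 for Kmo, 0.14 for Mat1a and 0.014 for Prodh. With voom, it was 0.00017 for Mat1a. With array weights, it was -0.17 for Sds. Leaving out 1 liver at a time gave -0.19 to 0.063 for Amdhd1, -0.093 to 0.053 for Auh, -0.052 to 0.20 for Bcat2, -0.13 to 0.095 for Cbs, -0.12 to 0.016 for Gldc, -0.22 to 0.024 for Gnmt, -0.051 to 0.076 for Gpt2, -0.063 to 0.28 for Hal, -0.37 to 0.22 for Kmo, -0.077 to 0.10 for Mat1a, -0.38 to 0.30 for Sds.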

Other observations

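The ratio of Sds to Sdsl, neighbouring genes on chromosome 5, was 4.63, 6.11 and 4.45 in KO livers, against 5.74, 8.53 and 8.91 in controls; KO liver 2 overlapped the controls although both genes were highest there. The ratio of Got2 to Got1 was 0.762, 0.775 and 1.25 in KO livers, against 0.927, 0.820 and 0.548 in controls, highest in KO liver 3. Of 12 hormone receptors and transcription factors of the liver, 11 had lower mean log2 levels in KO livers, against 51.9% of all genes. The 12 summed to 374 to 456 FPKM in KO livers and 476 to 532 FPKM in controls, with a median log2 difference of -0.099. The promoter windows of the 12 branched-chain members matched had a median of 19.5 CpG dinucleotides in 300 bases, against 10 in the other 28 members, 20 in genes that passed the filter and 7 in all windows, and a median GC content of 57.3%, against 57.2% in the other members. None of these was tested.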
